A study of Homo sapiens with 6 samples.

Results

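The clustered protocadherin genes lie in 3 neighbouring arrays, alpha, beta and gamma, on chromosome 5. Loops were taken as members if at least 1 anchor touched 140150000 to 140950000 (hg19). The window held 28 of the 46849 chromatin loops in the list deposited for the series. Of these, 25 had both anchors in the window and 3 reached beyond its lower edge. Contacts were measured by Micro-C in untreated wild-type HAP1 cells, a human line derived from a chronic myeloid leukaemia line. HAP1 is near-haploid, and per the labels the cells used here were diploid ones, sorted by a DNA stain. Crosslinking was done in 2 steps, 10 min in 1% formaldehyde followed by 45 min in DSG at 3 mM, a protein crosslinker with a longer arm. The labels describe 6 replicates in 1 group without saying whether they were separate cultures. The list does not tell them apart, so no value has a replicate error and no conditions could be compared.

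Clustered protocadherins are cadherin-like adhesion proteins of the cell surface, best known from neurons, where each cell uses its own small set of them. In the alpha and gamma arrays every variable exon has its own promoter and is spliced to constant exons at the end of the array, whereas beta genes stand alone. Most of these promoters carry a conserved element around the letters CGCT. CTCF and cohesin, the proteins that hold chromatin loops, are known to join such promoters to distant enhancers. Expression and CTCF binding were not analysed here, so nothing below says which genes HAP1 uses.

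RefSeq (GRCh38.p14) lists 53 protein-coding genes in these arrays, 15 alpha, 16 beta and 22 gamma. PCDHA1 is the first of them and PCDHGC5 the last. PCDHAC1 and PCDHAC2 close the alpha array, and PCDHGC3 is among the last genes of the gamma array. These are called C-type genes. The sequences that follow are 42 bases of the promoter of 12 of the 14 genes named with the selection. Each shows a CGCT match and the bases around it. PCDHGA12 and PCDHGC5 had no entry. Capitals mark the CGCT match on the gene's strand nearest to 60 bases before the gene's start, and all stretches run 5′ to 3′ on the plus strand. Their positions are in GRCh38.p14 and cannot be set beside the hg19 positions of the loops. Some promoters hold more than 1 match on the gene's strand, so the marked one need not be the conserved element. PCDHGC3 holds 5, PCDHAC1, PCDHAC2 and PCDHGB1 hold 3 each, and PCDHB2 holds 2.
PCDHA1 (chr5:140786076-140786117): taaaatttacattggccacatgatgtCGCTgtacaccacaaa
PCDHA4 (chr5:140806969-140807010): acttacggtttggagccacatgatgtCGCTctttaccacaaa
PCDHA6 (chr5:140827887-140827928): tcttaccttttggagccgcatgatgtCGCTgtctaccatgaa
PCDHA12 (chr5:140875234-140875275): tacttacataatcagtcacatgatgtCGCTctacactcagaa
PCDHAC1 (chr5:140926210-140926251): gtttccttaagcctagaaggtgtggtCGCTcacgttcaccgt
PCDHAC2 (chr5:140966409-140966450): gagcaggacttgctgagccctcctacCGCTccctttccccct
PCDHB2 (chr5:141094534-141094575): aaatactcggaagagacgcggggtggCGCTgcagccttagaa
PCDHB8 (chr5:141177767-141177808): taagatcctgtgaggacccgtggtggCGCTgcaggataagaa
PCDHB16 (chr5:141182300-141182341): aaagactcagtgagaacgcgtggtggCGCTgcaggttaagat
PCDHGA1 (chr5:141330393-141330434): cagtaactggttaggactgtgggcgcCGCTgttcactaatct
PCDHGB1 (chr5:141350015-141350056): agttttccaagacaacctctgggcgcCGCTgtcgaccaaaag
PCDHGC3 (chr5:141475889-141475930): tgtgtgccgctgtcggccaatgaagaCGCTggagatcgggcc

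Among the genes shown, C-type genes aside, each array had its own letters before the marked match. Of the 10 bases just before CGCT, 9 or 10 were identical between any pair of PCDHA1, PCDHA4, PCDHA6 and PCDHA12, and 8 or 9 between any pair of PCDHB2, PCDHB8 and PCDHB16. PCDHGA1 and PCDHGB1 shared 9. Between arrays, C-type genes aside, 3 to 7 of the 10 were identical. At the marked matches, the C-type genes PCDHAC1, PCDHAC2 and PCDHGC3 shared 1 to 3 with each other. With 3, 3 and 5 matches to choose from, these low values may come from the choice of match. In PCDHGC3 an unmarked CGCT of the same stretch is followed by bases close to those after the match in PCDHGB1. In PCDHB8 the match lies 3 bases past the start that RefSeq gives, and in PCDHA1, PCDHA4 and PCDHGA1 it lies 38, 73 and 95 bases before it.

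A promoter in this table is 300 bases, 250 before and 50 after the start. CGCT, searched on both strands, occurred in 46 of the 47 clustered protocadherin genes with an entry, against 70% of all 35116 promoters. On the gene's strand, 30 to 90 bases before the start, it occurred in 42 of the 47 (12 of 13 alpha, 12 of 14 beta and 18 of 20 gamma), against 19.1% of all promoters. That stretch was chosen after the matches had been seen. A gene was counted if any of its entries matched, and some gamma genes, such as PCDHGB1, had 2 entries. The shares of all promoters count each entry by itself. The core of the CTCF motif, with its ambiguous bases left free and on both strands, matched in 1 of the 47 genes (PCDHB9), against 2.41% of all promoters. The 2 shares are close. A fixed string misses sites that differ from it by a base, so it does not tell whether CTCF can bind these promoters. These matches describe the reference and not the HAP1 contacts.

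The loops were divided into 2 sets at a stretch without anchors that no listed loop spans, so the lack of loops between the sets is part of the division. On the alpha side, 12 loops had both anchors at or below 140425000. On the beta and gamma side, 16 loops had both anchors above 140470000. No listed loop joined the sets, and 0 of the 2702 loops of chromosome 5 spanned the 45 kb between them (140425001 to 140470000). Counted in steps of 5 kb, the stretch from 140420001 to 140475000 was spanned by no loop. Such steps made up 9.60% of those on all chromosomes (in 1 Mb windows that hold an anchor) and 10.7% on chromosome 5, counted singly. In the window they made up 13 of 160 (8.125%), with the last 10 kb at its upper edge included. Unspanned steps were thus no more frequent here than elsewhere. How often unbroken stretches of this length occur was not measured.

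**Figure D1:**
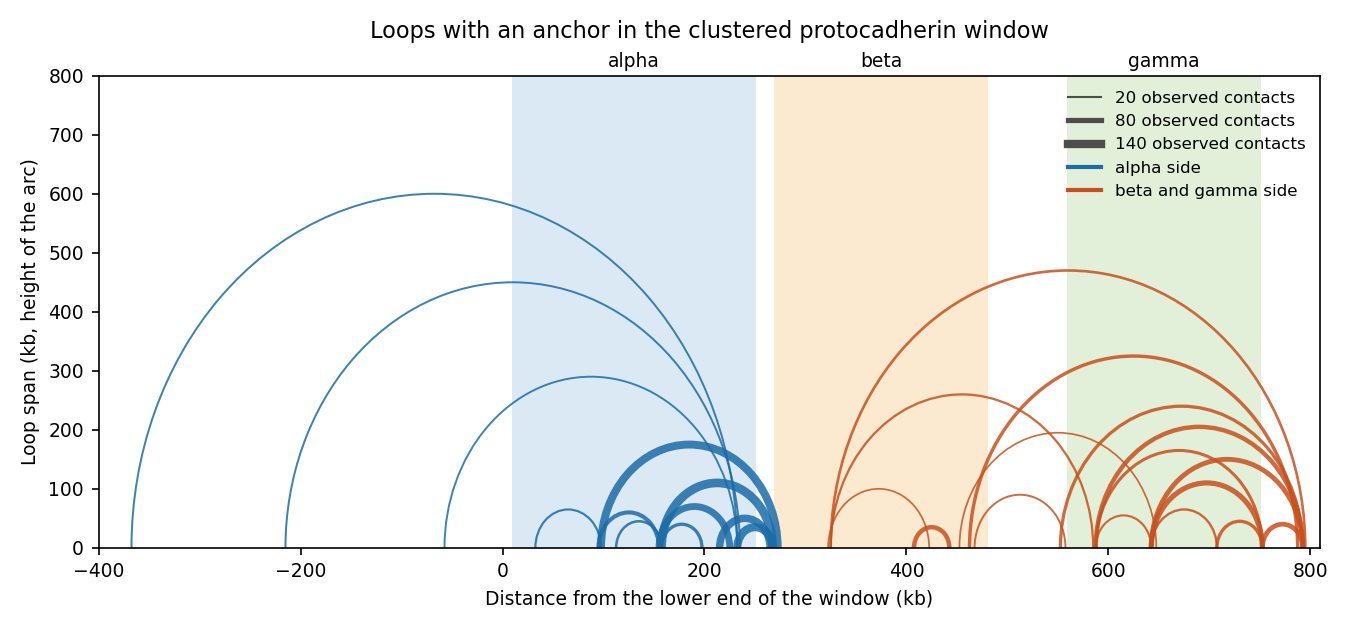
Each arc is 1 of the 28 loops and joins its anchor midpoints, with distance from the lower end of the window (kb) on the horizontal axis and the loop's span (kb) as its height. Line width follows observed contacts and shading gives the limits of alpha, beta and gamma. The 12 loops of the alpha side (blue) and the 16 of the beta and gamma side (orange) do not cross.

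By the limits given with the selection (alpha 140.16 to 140.40, beta 140.42 to 140.63 and gamma 140.71 to 140.90 Mb), 9 loops stayed within an array. There were 5 within alpha, 2 within beta and 2 within gamma. Between arrays there was 1 from alpha to beta, 2 from beta to gamma and 0 from alpha to gamma. The other loops were 13 with an anchor in a gap between arrays or in the flank above gamma, and 3 to outside the window. These limits were not checked against an hg19 annotation, and some counts turn on them. With the arrays widened by 10 kb, 5 loops fell within gamma, 4 joined alpha with beta and 6 had a gap or flank anchor. Which gene lies at an anchor was not analysed here. The 1 loop counted as alpha to beta ends in the first 5 kb of the beta limits, beside anchors in the gap.

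Loop strength is the observed contact count over the count expected from the donut-shaped surroundings. The 28 loops had a median strength of 3.51 (quartiles 2.47 and 6.29, range 2.02 to 14.8), against 3.55 over all loops and 3.48 over the other 2674 loops of chromosome 5. In the list the median ratio was 2.36 for loops of 35 to 40 kb and 4.10 for loops of 165 to 175 kb. The members were short, with a median span of 105 kb (range 35 to 600 kb) against 160 kb over all loops. Of the 28, 13 had a ratio at or above the median of loops of like span, a share of 46.4% (exact 95% interval 27.5 to 66.1%) against 50.0% in the list. With 5 and 10 kb anchors ranked apart the share was 64.3%, within that interval. As a set, then, they sat near the middle of the list. By ratio, 5 of the 28 were in the top 10% of loops of like span (17.9%, exact 95% interval 6.06 to 36.9%), against 10.0% of all loops. By observed count, 3 of the 28 (10.7%) were in the top 10% for their span and anchor width, against 9.90%. Each of the 4 q-values of the caller was at most 0.1 for 21 loops (75%), against 72.0% of the list.

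**Figure D2:**
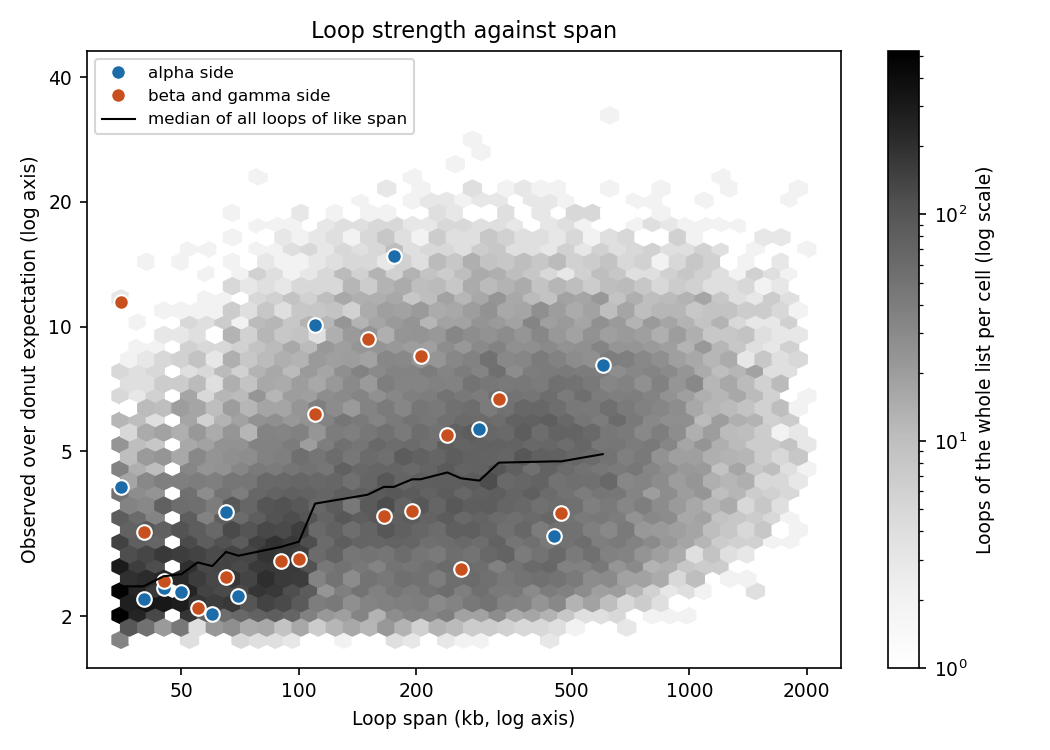
The span of a loop (kb, log axis) is plotted against observed over donut-expected contacts (log axis). Grey cells count all listed loops, apart from those over 2 Mb or with a ratio of 40 or more, and the line joins the medians of all loops of like span at the members' spans. The 28 protocadherin loops (coloured points) lie on both sides of the line, and the point at a span of 35 kb and a ratio of 11.5 lies in beta.

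The window was fairly dense in loops. Windows of the same 800 kb laid end to end along the genome held a median of 18 loops (quartiles 10 and 24), and 84.5% of the 3460 windows with an anchor held fewer than 28. The ratio to the median window was 1.56. The 90th percentile of the windows was 30 loops. Counting only loops with both anchors in the window, 25 here, the ratio was 2.78. This window was set around the arrays and no listed loop crosses its upper edge, whereas the others cut loops wherever their fixed edges fall. What this adds to the ratio of 2.78 was not tested.

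On the alpha side, the highest counts converged on 15 kb just past the alpha limits, at 140410001 to 140425000. An enhancer that serves the alpha array, HS5-1, is known to lie beyond its last exons. Whether it falls in these 15 kb was not analysed here. The 4 loops that end there had the 4 highest counts of all 28, between 123 and 147 contacts. Their exact Poisson intervals overlap, so counting error does not tell these counts apart.

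The loop with the highest donut ratio of the 28 joined 140245001 to 140250000, in the alpha array, with 140420001 to 140425000. It had 132 observed contacts (exact Poisson 95% interval 110.4 to 156.5) against 8.93 expected, a ratio of 14.8 (12.4 to 17.5) over a span of 175 kb. The donut ratio was higher than in 98.3% of listed loops of like span. Against its vertical surroundings, the largest of its 4 expectations, the ratio was 7.06 (5.91 to 8.38). On that measure it came after a short loop of the beta array, at 10.2 (7.89 to 13.0). Expected values are taken as fixed in these intervals, which cover counting error only.

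The loop with the most contacts joined 140305001 to 140310000 with 140415001 to 140420000, 110 kb away. It had 147 contacts (124.2 to 172.8) against 14.6 expected, a ratio of 10.1 (8.51 to 11.8), or 6.21 against its largest expectation. A shorter loop of 35 kb joined 140380001 to 140385000 with the same upper anchor by 136 contacts (114.1 to 160.9) against 33.1 expected, a ratio of 4.11. This ratio too was high for its span, at 94.0%. By count, these 3 loops of 5 kb anchors lay at 97.6, 97.9 and 97.5% for their span and anchor width.

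The remaining one of the 4 was of another kind. It had 10 kb anchors (140360001 to 140370000 with 140410001 to 140420000), whose pixel covers more of the map than that of a 5 kb loop. Its 123 contacts (102.2 to 146.8) stood against 53.8 expected, a ratio of 2.29. By count it lay at 63.0% among loops of like span and anchor width, so its high count is not unusual for its width.

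Contacts inside the alpha array itself were weaker. The 5 loops with both anchors in alpha spanned 40 to 70 kb and had ratios of 2.02 to 3.58, with a median of 2.23. None was in the top 10% of its span class by ratio. Among loops of like span and anchor width they lay, in order of position, at 74.5, 29.3, 38.1, 60.1 and 34.6% by ratio. By count they lay at 16.1, 8.15, 19.9, 84.8 and 41.5%. The highest ratio was that of the lowest pair, 140180001 to 140185000 with 140245001 to 140250000, with 22 contacts (13.8 to 33.3) against 6.15 expected. The highest count, 111, was that of a 10 kb loop from 140300001 to 140310000 to 140370001 to 140380000, with 49.8 expected and a single significant pixel.

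The other 3 loops of alpha met at the same anchor around 140305001. One came from 140240001 to 140250000 with 59 contacts (ratio 2.02), and one from 140260001 to 140265000 with 29 (ratio 2.34). The third led up to 140345001 to 140350000 with 44 contacts (ratio 2.20). Their ratio intervals, 1.54 to 2.60, 1.56 to 3.35 and 1.60 to 2.95, overlap. The merged anchor at 140300001 to 140310000 thus held 5 loops, 2 to lower and 3 to higher coordinates.

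Of the 3 arrays, only alpha had a listed loop to outside the window. All 3 outward loops started from 140380001 to 140390000, the last anchor of alpha, and ran to lower coordinates, while 0 loops ran to higher ones. They reached 139780001 to 139785000 (600 kb away, 18 contacts, ratio 8.08), 139930001 to 139940000 (450 kb, 18 contacts, ratio 3.12) and 140090001 to 140095000 (290 kb, 17 contacts, ratio 5.67). With intervals of 10.7 to 28.4, 10.7 to 28.4 and 9.90 to 27.2, these counts do not differ beyond counting error. They are not equal contact, since the spans differ and the loop of 450 kb has 10 kb anchors, the others 5 kb. The median counts of loops of like span and anchor width were 19, 27 and 26. The loop of 450 kb had a q-value of 0.308 against one of its surroundings. Among loops of like span and anchor width, the 3 lay at 40.5, 8.75 and 16.0% by count. By ratio they lay at 74.2, 73.1 and 60.7%. The anchor therefore faced both ways, with 3 long loops of 17 or 18 contacts to lower coordinates and the loop of 136 contacts to the gap above.

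**Figure D3:**
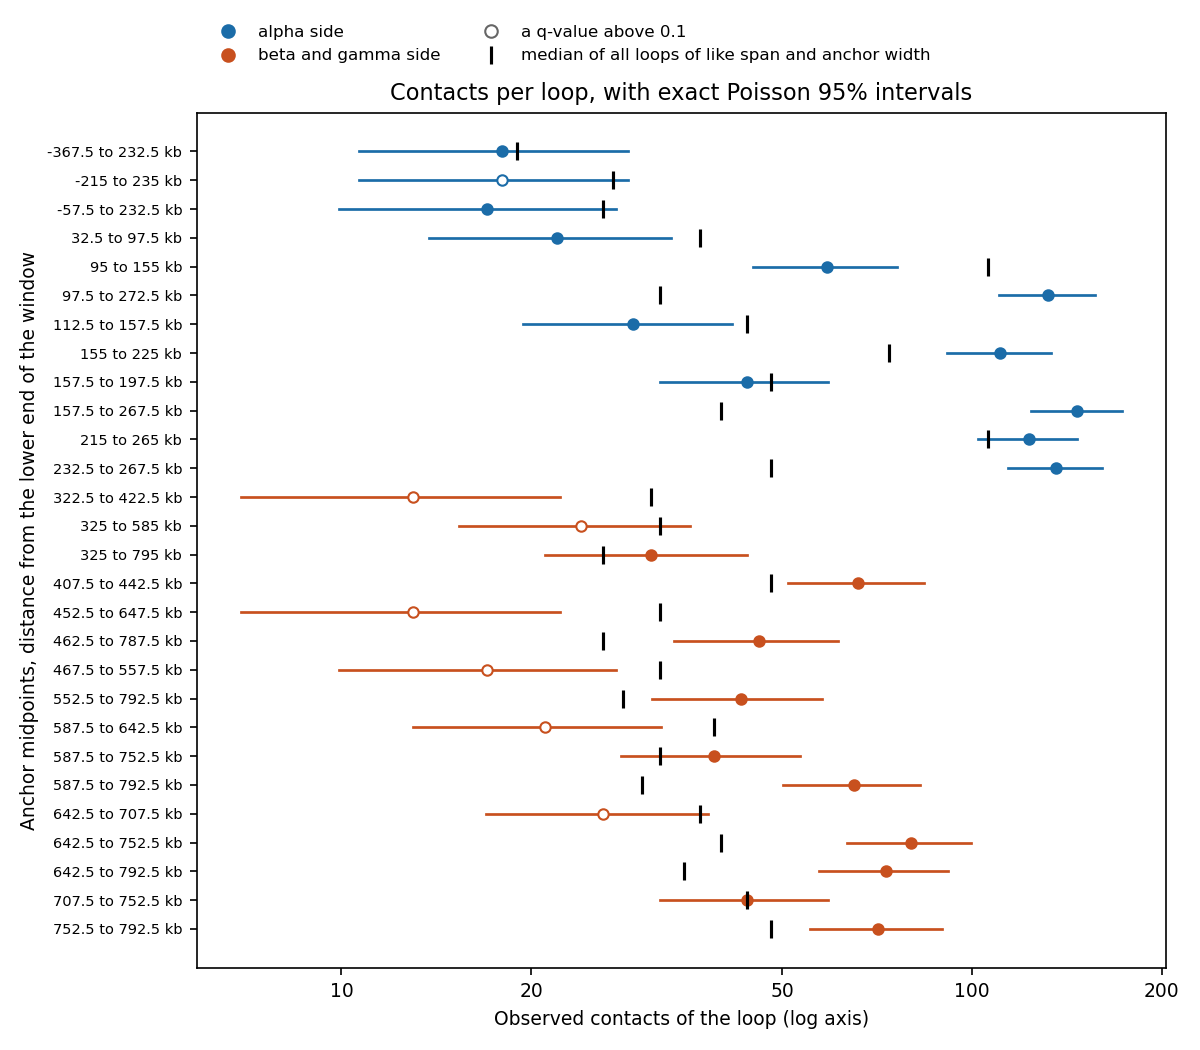
Observed contacts (log axis) with exact Poisson 95% intervals are shown for each of the 28 loops, ordered by position, with anchor midpoints given as distance from the lower end of the window. Black ticks mark the median of all listed loops of like span and anchor width, and open circles mark loops with a q-value above 0.1. The highest points, 123 to 147 contacts, all belong to the alpha side (blue).

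On the beta and gamma side, loops gathered at the far end of the gamma array and beyond it. The 6 loops that ended at 140935001 to 140950000 had 31 to 73 contacts and ratios of 3.20 to 9.33, and 5 of them lay above the median of like span. The exception, of 31 contacts, has 10 kb anchors and lay at 30.8%, but at 87.3% among loops of its own width and like span. They came from beta (2 loops), from the gap below gamma (1), from gamma (2) and from the flank itself (1). In the mouse, enhancers that serve the beta array are known to lie beyond the end of gamma. Whether human counterparts fall at these anchors was not analysed here.

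By donut ratio, the gamma array gave the highest of these loops. The anchor at 140790001 to 140795000 was joined to 140940001 to 140945000 by 73 contacts (57.2 to 91.8) against 7.82 expected, a ratio of 9.33 (7.31 to 11.7), or 5.31 against the largest of its 4 expectations. From 140735001 to 140740000 the same upper anchor was reached with 65 contacts (50.2 to 82.8) against 7.65, a ratio of 8.49 (6.56 to 10.8), or 4.14 against the largest. On either measure the 2 ratios do not differ beyond counting error, although the spans were 150 and 205 kb.

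Further loops reached 140900001 to 140905000, just past the gamma limits. From 140790001 the count was 80 (63.4 to 99.6; ratio 6.16, or 4.06 against the largest expectation), the highest on this side, and from 140735001 it was 39 (27.7 to 53.3; ratio 3.48). These intervals do not overlap, and the loop with fewer contacts was the longer one, 165 against 110 kb. From 140855001 to 140860000, 45 kb away, it was 44 (ratio 2.42), equal to the median for loops of its span and width.

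Of the gamma anchors, 140730001 to 140740000 and 140790001 to 140795000 formed a closed group with the flank anchors at 140900001 and 140940001. All 6 possible pairs of these 4 merged anchors were listed as loops, with 21 to 80 contacts. The last pair, 140900001 with 140940001, had 71 contacts (ratio 3.20). Fully joined groups of 4 or more anchors numbered 343 in the list, and their loops made up 3.87% of it. Here they made up 6 of 28 (21.4%), all from this 1 group, and are thus not independent of each other. The weakest link was between the gamma anchors themselves, with 21 contacts (13.0 to 32.1), a ratio of 2.09 and q-values as high as 0.503. With each q-value held to 0.1, this link is lost and the group is no longer closed. Closed triangles took in 13 of the 28 loops (46.4%), against 27.7% of all loops. The exact 95% interval, 27.5 to 66.1%, holds the share of the whole list, and 6 of the 13 are those of the closed group.

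Within gamma there was 1 more loop, from 140790001 to 140855001, with 26 contacts (17.0 to 38.1; ratio 2.48) and a q-value of 0.321. Neither loop within gamma had all q-values at or below 0.1, so a stricter list leaves 0 of these 2. Both gamma anchors of the closed group had higher counts with the flank than with each other. The interval of their own loop, 13.0 to 32.1, overlaps that of 1 of these 4 flank loops, from 140735001 to 140900001 (27.7 to 53.3), and lies below those of the other 3.

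In the beta array, leaving aside the loop from alpha to its first 5 kb, 7 loops had their lower anchor, and 2 of these had both anchors there. Their counts ran from 13 to 66 with a median of 24, and 4 of the 7 had a q-value above 0.1. The one with the most contacts joined 140555001 to 140560000 with 140590001 to 140595000, only 35 kb apart. It had 66 contacts (51.0 to 84.0) against 5.75 expected, a ratio of 11.5 (8.88 to 14.6), higher than in 99.8% of loops of like span, and its ratio against the largest of its 4 expectations, 10.2, was the highest of the 28. By count it lay at 75.3%, a lower rank than by ratio. The other 3 members of 35 to 40 kb had 20.0 to 33.1 expected contacts. It rested on 2 pixels and shared no anchor with another loop. Beta genes resemble each other closely, and the sources used here do not say how reads that fit several of them were treated.

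Apart from those first 5 kb, the lowest beta anchor was at 140470001 to 140480000. It held 3 loops, all to higher coordinates. The nearest end lay in beta itself (140570001 to 140575000), with 13 contacts (6.92 to 22.2; ratio 2.75). The next lay in gamma (140730001 to 140740000), with 24 contacts (15.4 to 35.7; ratio 2.60) over 260 kb. The farthest lay in the flank above gamma (140940001 to 140950000), with 31 contacts (21.1 to 44.0; ratio 3.54) over 470 kb, the longest loop inside the window. Only this last loop had each q-value at or below 0.1. It alone of the 3 lay above the median by count for its span and anchor width, at 69.6%.

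At the other end of beta, 140610001 to 140615000 was joined to 140935001 to 140940000 by 46 contacts (33.7 to 61.4) against 6.89 expected, a ratio of 6.67. This loop merged 21 significant pixels over a radius of 57.8 kb, more than 98.6% of the list, so its anchors are known less sharply than the 5 kb bins say. Its neighbour at 140600001 to 140605000 had 13 contacts with 140795001 to 140800000 in gamma (6.92 to 22.2; ratio 3.59). Next to it, 140615001 to 140620000 had 17 contacts with 140705001 to 140710000 in the gap (9.90 to 27.2; ratio 2.72). Both had a q-value above 0.1, and 0 of the 2 loops from beta to gamma would stay under that limit.

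The 80 kb between beta and gamma held 2 neighbouring anchors, of which the lower led to the flank above gamma. From 140700001 to 140705000, 43 contacts (31.1 to 57.9; ratio 5.48) led to 140940001 to 140945000. This loop rested on a single pixel, and its ratio was 3.17 against the lower-left and 2.15 against the vertical surroundings. Its vertical expectation was 2.77 times its horizontal one, where 90% of listed loops lay between 0.613 and 1.64. The horizontal and vertical expectations come from the strips of the contact map through the loop's own pixel, 1 for each anchor, so that a ratio far from 1 means unequal strips. The alpha loop of 132 contacts (2.03) and the loop of 65 contacts from 140735001 (1.67) also lay above that range, and the loop of 80 contacts from 140790001 lay below it (0.586). Of the 28 loops, 4 thus lay outside the range, and each of these had at least 43 contacts.

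**Figure D4:**
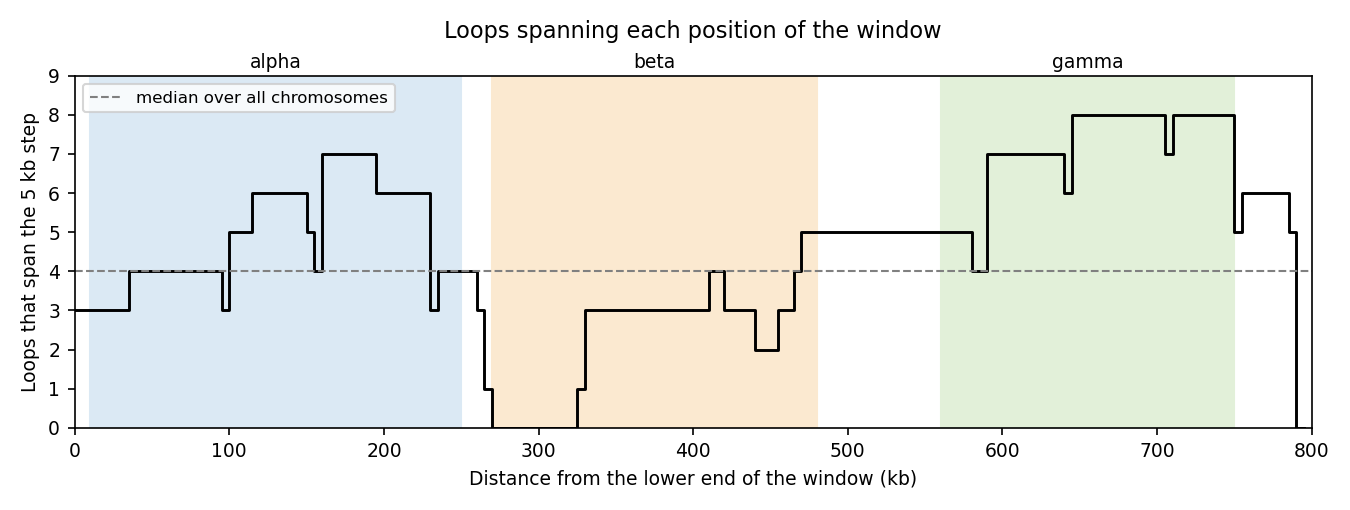
The count of listed loops that span each 5 kb step is plotted against distance from the lower end of the window (kb), with alpha, beta and gamma shaded and the median over all chromosomes (4) dashed. It falls to 0 at the start of beta and at the upper edge of the window and reaches 8 in gamma.

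Anchors were shared about as often as elsewhere. After merging of overlapping anchors the members had 29 anchors, 26 of them in the window, of which 16 held 1 loop. Of the 28 loops, 24 shared an anchor with another loop (85.7%, exact 95% interval 67.3 to 96.0%), against 89.7% of all loops. When anchors within 10 kb of each other were merged, all 28 shared one, against 96.8%. The anchors with the most loops were 140300001 to 140310000 in alpha and 140940001 to 140950000 in the upper flank, with 5 each, where 6.71% of all merged anchors held 5 or more. The alpha one ran both ways, and the flank one ran only to lower coordinates. Just beyond the window the next anchor, 140960001 to 140965000, held a loop of 35 kb to higher coordinates (51 contacts, ratio 2.58). No listed loop crossed the upper edge of the window, and none spanned the whole of it.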

How the data were processed

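Micro-C libraries of 6 HAP1 replicates were deposited as 1 loop list for the series. Per the submitters' processing notes, BWA and hg19 were used. Per the file headers, juicer_tools 1.22.01 wrote the list, with the column names of its HiCCUPS caller. For pooling, sequencing depth and caller settings, nothing is given in the sources used here. Observed contacts were deposited by the authors as raw counts per pixel, and beside them 4 expected values on the count scale, 1 for each kind of surroundings (donut, lower-left, vertical and horizontal). The q-values, 1 for each of these, the merged pixels and the cluster radii are also as the authors deposited them. The lowest count in the list is 8, so fainter contacts are not seen.

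Positions are counted from 1. Loops were put in an array by any overlap of an anchor with its limits. Ratios were ranked within up to 40 span classes of about equal loop number, and counts within such classes for each anchor width. Anchors overlapping by at least 1 bp were merged. Intervals are exact Poisson or exact binomial (95%) and cover counting error only. No test was made, since the list is 1 pooled call set and loops are not replicates. Functions were tested on simulated data. Python 3.11.15, numpy 2.4.6, pandas 2.3.3, scipy 1.17.1, networkx 3.6.1 and matplotlib 3.10.9 were used.

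Loops named are every loop of a location with 5 or fewer, otherwise the 3 highest by ratio and by count, all loops of the 5 anchors with the most, and the 3 longest. Here this took in nearly all of them. Protein ends, planned for comparison, were not analysed here. The window, genes and lists were chosen with earlier results of these data known.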

Additional observations from a re-analysis of the deposited data

How the results depend on the processing

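Of 73 alternative values, 62 stayed within 1.5 times the count reported or within the interval of the value reported, and 11 moved further. Placing anchors by their midpoint changed no count. With arrays widened by 10 kb, loops within gamma numbered 5, loops from alpha to beta 4, and loops with a gap or flank anchor 6. With each q-value at most 0.1, 21 loops were left, with 1 within beta, 0 within gamma and 0 from beta to gamma, and the closed group of 4 anchors was lost (0 groups). With 5 kb anchors alone, 22 loops were left, with 3 within alpha and 1 from beta to gamma. Loops joining alpha with gamma, or both sides, numbered 0 under each of these settings. No setting could have given another value, since each removes listed loops or only places their anchors anew, and no listed loop crosses between the sides. These values are therefore no check of the separation, although they count among the 62. The ratio of loops to the median window was 2.78 when both anchors had to lie inside. With anchors within 10 kb merged, 100% of members shared one.

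The share of members above the median of like span was 64.3% when anchor widths were ranked apart, within the interval of 27.5 to 66.1%. Median strength was 2.61 to 3.85 over its alternatives, and median span 90 to 110 kb. Against the largest of the 4 expectations, the ratio of 19 of the 28 loops stayed within its counting interval, that of 9 fell below it, and 6 fell by over 1.5 times. The alternatives for the closed group, the shifted windows and the single ratios were chosen after seeing the data. Leaving out replicates was not run, because the list pools them. No paired analysis was possible because there is 1 group. At 13 to 147 contacts a loop, differences of a few contacts are not detectable, and a pair missing from the list may still touch.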
